A study of Mus musculus with 3 samples.

Results

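Pericentral hepatocytes are the liver parenchymal cells nearest the central vein, and 209 such cells, selected on their own counts, were examined across 3 single-cell RNA libraries of mouse liver. A cell was a barcode with at least 1000 unique molecular identifiers (UMIs, each standing for 1 captured RNA molecule) over 300 genes or more, of which mitochondrial UMIs made up no more than 20%. A cell was called a hepatocyte where Alb, Apoa1, Apob, Fabp1 and Serpina3k together reached 150 per 10000 UMIs and 5 endothelial and Kupffer cell genes (Stab2, Clec4g, Dnase1l3, Clec4f and Cd5l) stayed under 20 per 10000. A hepatocyte was called pericentral where Cyp2e1, Cyp1a2, Cyp2c29, Oat and Glul together had at least 3 UMIs and more than 3 times the UMIs of the periportal genes Cyp2f2, Hsd17b13, Hal and Sds. These members numbered 81 of 266 hepatocytes in IDD+HID, 117 of 1020 in IDD+HTF and 11 of 233 in IDD, among 3545, 3208 and 1334 cells in the same order. The mirrored rule gave 60, 286 and 76 periportal hepatocytes.

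Each library came from the liver of 1 wild-type (WT) mouse, and all 3 mice had eaten an iron-deficient diet of 2 to 6 ppm iron for 1 week. The IDD+HID mouse then ate chow holding 2% carbonyl iron for the last 18 h. The IDD+HTF mouse was instead given 10 mg of holo-transferrin, the iron-loaded plasma carrier, into a vein. The IDD mouse got nothing further and was the control. Strain, sex, age and the time from the injection to collection are not given in the labels used here. Livers were taken apart with collagenase and pronase, and each suspension was a mixture with 5% hepatocyte suspension and 95% of the suspension of the other liver cells. The share of hepatocytes in a library is therefore not that of the liver. Under this same mix, hepatocytes numbered 266 of 3545 cells in IDD+HID, 1020 of 3208 in IDD+HTF and 233 of 1334 in IDD. The cause of this spread was not tested. With 1 mouse per group no difference between mice could be tested, and every interval below is a 95% interval that covers counting error only.

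Blood enters the liver lobule at the portal tracts and leaves by the central vein, and hepatocytes along this path express different enzymes. Pericentral hepatocytes, under Wnt signals from the central vein, specialise in glutamine synthesis, bile acid synthesis and cytochrome P450 drug metabolism, whereas periportal hepatocytes carry out the urea cycle and gluconeogenesis. Hepatocytes also secrete hepcidin, the product of Hamp, a hormone that makes the iron exporter ferroportin disappear from cell surfaces and so lowers iron entry into plasma. Hamp transcription is raised by bone morphogenetic protein (BMP) signals from liver endothelial cells acting through SMAD factors and by the inflammatory STAT3 pathway.

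Mice carry 2 hepcidin genes, Hamp and its neighbour Hamp2, and their upstream sequences are shown because the levels of this near-identical pair are compared below. The 250 bases before each start are given 5′ to 3′ from RefSeq (GRCm38.p6), both on the minus strand, at chr7:30944030-30944279 for Hamp and at chr7:30924182-30924431 for Hamp2. Capitals mark GGCGCC, the letters of the BMP-responsive element known from hepcidin promoters, and TTCNNNGAA, the core letters bound by STAT factors.
Hamp: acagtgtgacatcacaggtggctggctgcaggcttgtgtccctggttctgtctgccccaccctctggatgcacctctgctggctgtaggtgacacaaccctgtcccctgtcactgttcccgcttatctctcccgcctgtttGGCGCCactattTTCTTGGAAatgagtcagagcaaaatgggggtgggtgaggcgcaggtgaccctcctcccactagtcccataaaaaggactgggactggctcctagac
Hamp2: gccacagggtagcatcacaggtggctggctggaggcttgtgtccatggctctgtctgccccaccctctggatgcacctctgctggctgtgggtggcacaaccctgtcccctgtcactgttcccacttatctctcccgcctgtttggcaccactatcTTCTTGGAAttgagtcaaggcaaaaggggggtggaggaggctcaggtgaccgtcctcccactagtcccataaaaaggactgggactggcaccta
The windows were 91.9% identical (227 of 247 bases at an offset of 3). GGCGCC lay 109 to 104 bases before the start of Hamp and was not among the letters of the Hamp2 window, where the aligned stretch carried G4A (counted from 1 at the first base of GGCGCC, with the Hamp base first). TTCNNNGAA lay in both windows, 97 to 89 bases before the start of Hamp and 94 to 86 before that of Hamp2. Both motifs read the same on both strands, so 1 search covers both, and they do not overlap. Of 32851 mouse promoter windows of the same length, 9.59% held GGCGCC and 7.02% held TTCNNNGAA. A match is a description of letters and not evidence of a bound site.

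The 81 IDD+HID members held 278330 UMIs, the 117 IDD+HTF members 317016 and the 11 IDD members 29377. Median UMIs per member were 2252 in IDD+HID (range 1072 to 28429), 2330 in IDD+HTF (1000 to 8161) and 2904 (1289 to 4865) in IDD, with medians of 601, 501 and 609 genes in the same order. Levels are given in CPM, the UMIs of a gene per 1000000 UMIs summed over the members of a library. A count of 3 UMIs, used as the floor for a gene at 0, equals 10.8 CPM in IDD+HID and 9.46 CPM in IDD+HTF, against 102 CPM in IDD, so the IDD side resolves least. No member barcode was shared between libraries, and the doublet caller marked none of the members. It marked 7 of 3545, 6 of 3208 and 27 of 1334 cells, under 0.5% in IDD+HID and IDD+HTF, so it did not work there and doublets remain.

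The libraries differed in the ribosomal RNA of these cells, and this touches every comparison between them. Ribosomal and other small structural RNA made up 13.1% of member UMIs in IDD+HID, 44.4% in IDD+HTF and 30.0% in IDD. Per member its share ran from 0.320% to 57.0% with a median of 13.4% in IDD+HID, from 2.70% to 69.1% with a median of 46.4% in IDD+HTF, and from 2.50% to 52.9% with a median of 37.7% in IDD. Members under 25% numbered 55 of 81 in IDD+HID, 15 of 117 in IDD+HTF and 5 of 11 in IDD. The ranges overlapped, but most IDD+HID members lay below 25% and most IDD+HTF members above it. Mitochondrial RNA made up 7.79% of member UMIs in IDD+HID, 9.41% in IDD+HTF and 14.3% in IDD. Results are therefore given for all members and again within members under 25% and members at 25% or more.

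A second fact concerns 5 IDD+HID members that held at least 10 UMIs of another cell type's markers, against none in IDD+HTF or IDD. Of these 5, 1 held 391 UMIs of neutrophil markers, 2 held 131 and 81 UMIs of B cell markers, and 2 held 53 and 32 UMIs of Kupffer cell markers. Summed neutrophil markers accordingly stood at 1412 CPM in IDD+HID members, with all 3 listed markers at 0 in IDD+HTF and in IDD. B cell markers stood at 812, 6.31 and 34.0 CPM in IDD+HID, IDD+HTF and IDD, antigen presenting cell markers at 862, 37.9 and 0 CPM, and Kupffer cell markers at 388, 110 and 0 CPM. Sinusoidal endothelial markers stood at 140, 50.5 and 68.1 CPM in members, against 12722, 10516 and 6389 CPM in the cells that were not hepatocytes of the same libraries. Of 11 endothelial markers, 7 were detected in IDD+HID members, 7 in IDD+HTF members and 2 in IDD members. S100a9, a neutrophil gene, had 227 UMIs in IDD+HID members with these 5 cells and 2 without them, and Tmsb4x, an actin-binding peptide gene of blood cells, had 630 and 42. Hamp moved little, with 2601 CPM with them and 2838 CPM without.

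The zone genes that chose the members are given as a description. Cyp2e1, which oxidises ethanol and small solvents, stood at 2842 CPM in IDD+HID and 1584 CPM in IDD+HTF, against 1225 CPM in IDD. Cyp1a2 stood at 201, 205 and 374 CPM and Cyp2c29 at 313, 448 and 374 CPM in IDD+HID, IDD+HTF and IDD. Oat, ornithine aminotransferase, stood at 331, 66.2 and 34.0 CPM, and Glul, glutamine synthetase, at 122, 69.4 and 68.1 CPM in the same order. The 5 zone genes had 3 to 107 UMIs per member in IDD+HID (median 9), 3 to 39 in IDD+HTF (median 5) and 3 to 11 in IDD (median 4). Members with exactly 3 such UMIs, just inside the rule, numbered 5, 26 and 2 in IDD+HID, IDD+HTF and IDD, and hepatocytes with 2, just outside it, numbered 11, 46 and 7. No periportal rule gene was seen in 66 of 81, 88 of 117 and 9 of 11 members. Members made up 30.5% of hepatocytes in IDD+HID (25.0% to 36.4%), 11.5% in IDD+HTF (9.58% to 13.6%) and 4.72% (2.38% to 8.29%) in IDD, all by exact Clopper-Pearson intervals.

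Genes outside the rule showed a pericentral profile, but the genes of the innermost layer of cells next to the vein were scarcely seen. Of 21 pericentral markers outside the rule, 11 had at least 10 UMIs over both zones in IDD+HID and 10 of them were higher in pericentral than in periportal hepatocytes, with a median log2 ratio of 2.83. In IDD+HTF 6 of 9 were higher (median 1.84) and in IDD 4 of 4 (median 2.11). Of the periportal markers outside the rule, 17 of 19 were lower in pericentral hepatocytes in IDD+HID (median −1.32), 20 of 21 in IDD+HTF (−1.84) and 16 of 20 in IDD (−0.83). Igfbp2 went against its list in all 3 libraries, at 309 against 212 CPM in IDD+HID, 331 against 213 CPM in IDD+HTF and 272 against 98.0 CPM in IDD, pericentral before periportal. These ratios are a description, since the rule chose the cells from the same counts. The Wnt target genes of the vein-lining layer were near 0. Axin2 had 1, 0 and 0 UMIs and Lgr5 0, 1 and 0 UMIs in all members of IDD+HID, IDD+HTF and IDD. Tbx3 had 3, 2 and 0 UMIs, and the glutamate transporter Slc1a2 and the ammonium transporter Rhbg had none in members of any library. Glul UMIs were about as frequent in B cells at equal depth in total UMIs, which count ribosomal RNA. Ribosomal RNA made up 13.1%, 44.4% and 30.0% of member UMIs in IDD+HID, IDD+HTF and IDD. In all cells that were not hepatocytes it made up 2.77%, 4.82% and 7.13%, so depth in other RNA was not made equal. With every cell thinned to 1000 UMIs, 8.62%, 8.03% and 10.3% of members held a Glul UMI in IDD+HID, IDD+HTF and IDD, beside 7.79%, 9.21% and 7.97% of B cells. Without thinning these shares were 18.5%, 17.1% and 18.2% of members and 29.9%, 31.5% and 28.7% of B cells, at median depths of 2252, 2330 and 2904 UMIs in members and 4805, 3875 and 4141 in B cells.

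Named by rule, the genes highest in pericentral over periportal hepatocytes in all 3 libraries were Cyp2c50, Mup11, Mup17, Lect2, Gulo, Rgn, Slco1b2, Pon1, Rnase4 and Tsc22d1. Cyp2c50, an arachidonic acid and drug-metabolising P450, stood at 212 CPM in pericentral against 7.07 CPM in periportal hepatocytes of IDD+HID, at 94.6 against 4.70 CPM in IDD+HTF, and at 272 CPM against 0 UMIs in IDD. Lect2, a secreted hepatokine, stood at 104 against 2.36 CPM in IDD+HID, at 50.5 against 3.76 CPM in IDD+HTF and at 238 against 7.26 CPM in IDD. The log2 ratios of the genes on the pericentral side ranged from 1.48 for Pon1 in IDD+HID to 5.47 for Lect2 in the same library. Gulo, the last enzyme of vitamin C synthesis, stood at 162 against 4.71 CPM in IDD+HID, 199 against 22.6 CPM in IDD+HTF and 306 against 32.7 CPM in IDD. Rgn, a calcium-binding lactonase of the same pathway, stood at 1674 against 212 CPM, at 155 against 43.3 CPM and at 715 against 21.8 CPM in the same order. The genes lowest in pericentral over periportal hepatocytes by the same rule included Mup20, Pck1, Hamp, Apoa4, Fbp1, Hpx, Aldh1l1, Rida and Gapdh. Pck1, the entry enzyme of gluconeogenesis, stood at 331 against 1445 CPM in IDD+HID, 72.6 against 445 CPM in IDD+HTF and 0 UMIs against 305 CPM in IDD. Fbp1 belongs to the same sugar pathway and Hpx, hemopexin, carries heme in plasma. The periportal side of Mup20, a pheromone carrier, stood opposite to its relatives Mup11 and Mup17 on the pericentral side.

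**Figure D1:**
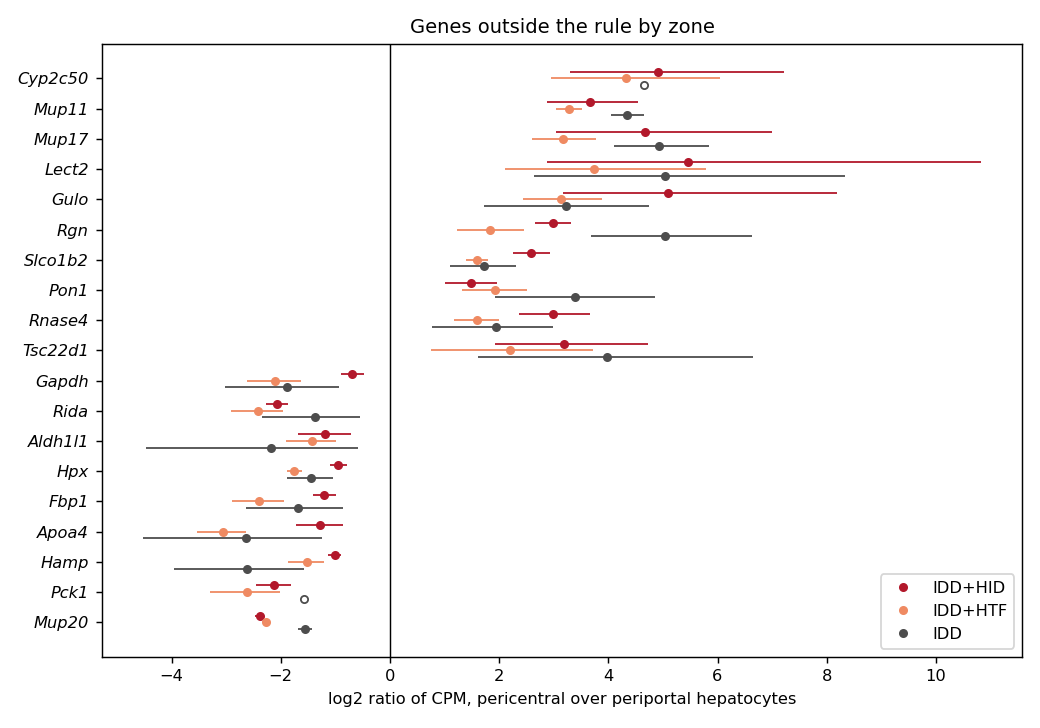
Pericentral over periportal log2 ratios of CPM for the named genes, with 95% counting intervals, in IDD+HID, IDD+HTF and IDD. Hollow points are bounds where 1 zone had no UMI, and every gene shown lies on the same side of 0 in the 3 libraries.

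Hamp, the hepcidin gene (ENSMUSG00000050440.8, chr7:30942368-30944032, GRCm38), stood higher in IDD+HID members than in those of the other libraries. The members held 724 Hamp UMIs in IDD+HID, 86 in IDD+HTF and 7 in IDD, which is 2601 CPM (2415 to 2798), 271 CPM (217 to 335) and 238 CPM (95.8 to 491). Per member the level ran from 0 to 128 per 10000 UMIs with a median of 14.3 in IDD+HID, from 0 to 34.5 with a median of 0 in IDD+HTF, and from 0 to 13.7 with a median of 0 in IDD. IDD+HID members were thus high as a group but overlapped the others at the low end. Hamp UMIs were seen in 65 of 81 members in IDD+HID (80.2%), 44 of 117 in IDD+HTF (37.6%) and 4 of 11 in IDD (36.4%). With cells thinned to 1000 UMIs, ribosomal RNA included, these shares were 66.4%, 21.7% and 19.0%, beside 2.85%, 1.75% and 0.397% of B cells, which do not express the gene. The ratio was 9.59-fold for IDD+HID over IDD+HTF (7.66 to 12.1), 10.9-fold for IDD+HID over IDD (5.27 to 27.2) and 1.14-fold for IDD+HTF over IDD (0.53 to 2.92). Only the last of these 3 counting intervals spans 1.

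The higher Hamp level of IDD+HID members was seen on both sides of the ribosomal RNA split, at a smaller size against IDD+HTF. Under 25%, Hamp stood at 3091 CPM in IDD+HID and 693 CPM in IDD+HTF, against 388 CPM in IDD (673, 20 and 6 UMIs). At 25% or more it stood at 842, 229 and 71.8 CPM (51, 66 and 1 UMIs). IDD+HID over IDD+HTF was 4.46-fold under 25% (2.86 to 7.34) and 3.68-fold at 25% or more (2.50 to 5.38). Over all cells Hamp was lower in pericentral than in periportal hepatocytes in every library, at 2601 against 5256 CPM in IDD+HID, 271 against 781 CPM in IDD+HTF and 238 against 1470 CPM in IDD. Ribosomal RNA was also higher in pericentral hepatocytes, at 13.1% against 2.80% of UMIs in IDD+HID, 44.4% against 21.2% in IDD+HTF and 30.0% against 19.4% in IDD. Under 25% Hamp was lower in pericentral hepatocytes again, at 3091 against 5322 CPM in IDD+HID, 693 against 1145 CPM in IDD+HTF and 388 against 2060 CPM in IDD. At 25% or more the order turned in IDD+HTF, with 229 against 158 CPM (66 and 62 UMIs), and in IDD, with 1 and 3 UMIs. By share of cells thinned to 1000 UMIs, ribosomal RNA included, 66.4% of pericentral against 86.2% of periportal hepatocytes held Hamp in IDD+HID. In IDD+HTF these shares were 21.7% against 22.1%, and in IDD 19.0% against 14.0%. The zone difference in Hamp therefore did not hold by every measure. Barcodes with at most 100 UMIs, which hold mostly free RNA, had 412, 179 and 73.7 CPM of Hamp in IDD+HID, IDD+HTF and IDD, below the members of each library.

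**Figure D2:**
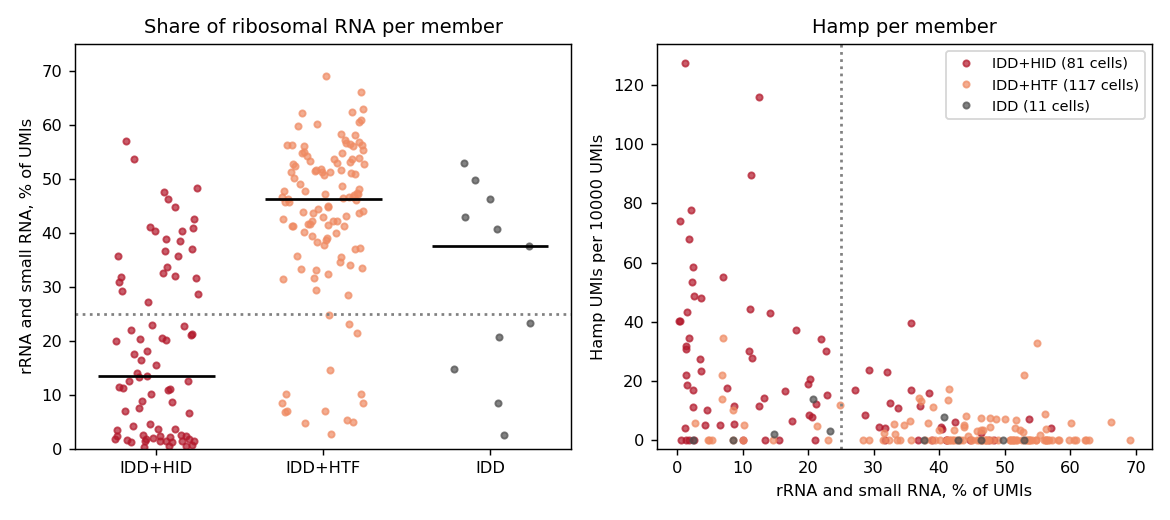
Hamp UMIs per 10000 (vertical axis) against the share of ribosomal and small RNA in percent (horizontal axis), 1 point per member, for IDD+HID, IDD+HTF and IDD. The dotted line marks 25%, below which 55, 15 and 5 members lie, and the highest Hamp values, up to 128 per 10000, are IDD+HID members.

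Hamp2 (ENSMUSG00000056978.8) varied less than Hamp over all pericentral hepatocytes, and 1 member weighed heavily on its IDD+HTF level. It stood at 187 CPM in IDD+HID and 139 CPM in IDD+HTF, against 170 CPM in IDD, from 52, 44 and 5 UMIs. In IDD+HTF 28 of the 44 UMIs sat in 1 member, and in IDD+HID at most 13 of 52 did. IDD+HID over IDD+HTF was 1.35-fold in pericentral hepatocytes (0.88 to 2.06), an interval that spans 1. Without the 1 IDD+HTF member with 28 UMIs, left out after seeing the data, IDD+HTF stood at 50.7 CPM. The ratio was then 3.69-fold (2.07 to 6.92). Without the highest member of each library it was 2.78-fold (1.52 to 5.32), from 39 UMIs in IDD+HID and 16 in IDD+HTF. In periportal hepatocytes Hamp2 stood at 464 CPM in IDD+HID and 41.4 CPM in IDD+HTF, against 14.5 CPM in IDD, and IDD+HID over IDD+HTF had a log2 ratio of 3.49. Reads of these near-identical genes may be split between them in the authors' counting, so levels of Hamp2 are uncertain.

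Ferritin, the iron store, showed differences that depended on the ribosomal RNA class of the members. Fth1, the ferritin heavy chain, stood at 4459 CPM in IDD+HID and 1139 CPM in IDD+HTF, against 1498 CPM in IDD (1241, 361 and 44 UMIs). Per member Fth1 ran from 0 to 234 per 10000 UMIs (median 11.97) in IDD+HID, from 0 to 278 (median 0) in IDD+HTF and from 0 to 71.9 (median 2.95) in IDD, so the libraries overlapped. IDD+HID over IDD+HTF was 3.92-fold over all members (3.48 to 4.41). Under 25% ribosomal RNA the order turned, with 5598 CPM in IDD+HID, 9811 in IDD+HTF and 2783 in IDD, a ratio of 0.57 (0.50 to 0.65) for IDD+HID over IDD+HTF. At 25% or more Fth1 stood at 363, 271 and 71.8 CPM, with a ratio of 1.34 (0.80 to 2.18). The Fth1 difference between IDD+HID and IDD+HTF therefore had no direction that held in both classes. Ftl1, the ferritin light chain, stood at 5935, 994 and 3234 CPM in IDD+HID, IDD+HTF and IDD over all members. Its IDD+HID over IDD+HTF ratio was 5.97-fold over all members (5.29 to 6.76), 1.62-fold under 25% (1.36 to 1.95) and 1.29-fold at 25% or more (0.93 to 1.78).

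The other iron genes were flatter or too thinly counted to order. Trf, which encodes transferrin, stood at 7994 CPM in IDD+HID and 5883 CPM in IDD+HTF, against 7251 CPM in IDD. Tfr2, the second transferrin receptor and a sensor upstream of hepcidin, stood at 169, 126 and 102 CPM (47, 40 and 3 UMIs). Tmprss6, a protease that dampens BMP signalling to hepcidin, stood at 212, 388 and 238 CPM, and its IDD+HID over IDD+HTF ratio of 0.55 (0.39 to 0.75) was 1.23 (0.79 to 1.85) in members at 25% or more. Tfrc, the transferrin receptor for iron uptake, had 0 UMIs in IDD+HID (at most 10.8 CPM), 11 UMIs or 34.7 CPM in IDD+HTF, and 0 UMIs in IDD (at most 102 CPM). At the floor, Tfrc in IDD+HID was at least 3.22-fold lower than in IDD+HTF. Slc40a1, the ferroportin gene, had 18, 15 and 0 UMIs, and the uptake carrier Slc39a14 had 21, 37 and 2. Alas1, the first enzyme of heme synthesis, had 51 UMIs in IDD+HID, 10 in IDD+HTF and 0 in IDD. Its 5.81-fold ratio of IDD+HID over IDD+HTF (2.92 to 12.8) became 0.75 (0.37 to 1.73) under 25% ribosomal RNA. Hmox1 had 0, 2 and 0 UMIs, and Nqo1 had none in any library.

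Targets of BMP-SMAD signalling were measured for 2 of their list, Id2 and Id3, and both were higher in CPM in IDD+HID. Relative to the median ratio of all measured genes, 1 of the 2 was at least 1.5-fold higher against IDD+HTF, and 2 against IDD. Id2 had 92 UMIs (331 CPM) in IDD+HID and 29 (91.5 CPM) in IDD+HTF, against 1 (34.0 CPM) in IDD. Id3 had 63 UMIs (226 CPM), 7 (22.1 CPM) and 1 (34.0 CPM). IDD+HID over IDD+HTF was 3.61-fold for Id2 (2.36 to 5.69) and 10.2-fold for Id3 (4.69 to 26.5). Without the 5 members with other cell types' markers, IDD+HID levels were 358 CPM for Id2 and 195 CPM for Id3. In members at 25% or more ribosomal RNA the ratios were 0.76 (0.19 to 2.20) from 4 and 25 Id2 UMIs and 0.79 (0.02 to 6.54) from 1 and 6 Id3 UMIs, too few to order. Id2 and Id3 were also expressed in the other liver cells, at 545 and 985 CPM in IDD+HID, and at 222 and 410 CPM in its free RNA. Free RNA was estimated, from other cell types' markers, at 28.5% of member UMIs in IDD+HID, 2.65% in IDD+HTF and 3.54% in IDD, and at 3.68% in IDD+HID without those 5 members. With free RNA taken off and those members left out, IDD+HID over IDD+HTF was 4.14-fold for Id2 and 13.0-fold for Id3. Id1 had 10, 3 and 0 UMIs and Smad7 had 4, 3 and 0 in IDD+HID, IDD+HTF and IDD.

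**Figure D3:**
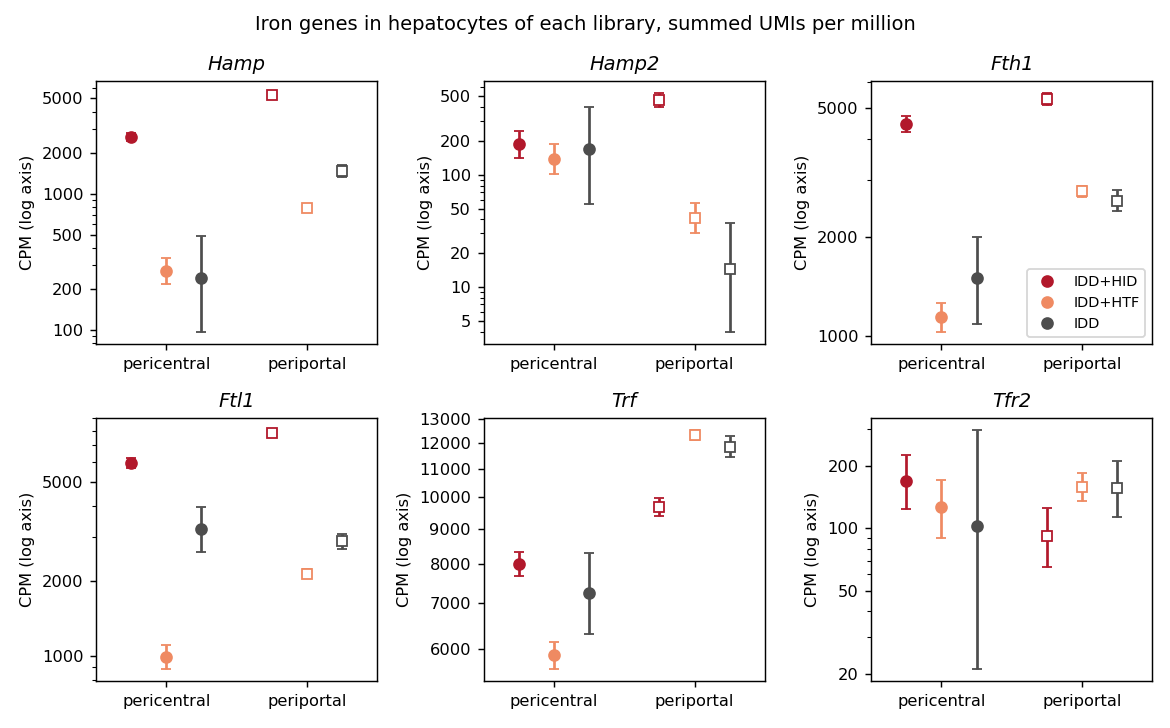
CPM on a log axis of 6 iron genes in pericentral (filled) and periportal (hollow) hepatocytes of IDD+HID, IDD+HTF and IDD, with 95% counting intervals. Pericentral Hamp stands at 2601, 271 and 238 CPM, whereas pericentral Hamp2 lies between 139 and 187 CPM in all 3 libraries.

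Members with much ribosomal RNA differed from other members of the same library in which messenger RNAs they held. To compare them, CPM was taken over UMIs without ribosomal RNA, and the genes named here were chosen after their values were seen. Among 699 genes measured in IDD+HID members (at least 50 UMIs in the pair), 28% were at least 1.5-fold higher and 66.1% at least 1.5-fold lower in members at 25% or more than in members under 25%. In IDD+HTF 384 genes were measured, of which 60.7% were higher and 20.3% lower, so the overall balance differed between the libraries. In IDD 51 genes were measured, of which 29.4% were higher and 29.4% lower.

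In IDD+HID and IDD+HTF, Fabp1, Fth1 and Cyb5a were lower and Apob, Trf and Hspa5 higher in the members with much ribosomal RNA. Fabp1 and Apob are genes of the hepatocyte rule, which counted them per all UMIs, ribosomal RNA included. Their levels on each side of the split were therefore partly set by selection. Fabp1, a fatty acid carrier, stood at 1588 against 37625 CPM in IDD+HID and 1570 against 23649 CPM in IDD+HTF, members at 25% or more first. Of the 7765 Fabp1 UMIs of IDD+HID members, 2352 sat in 1 member. Fth1 stood at 592 against 5952 CPM in IDD+HID and 517 against 11211 CPM in IDD+HTF. Cyb5a, the electron donor cytochrome b5, stood at 189 against 5200 CPM in IDD+HID and 199 against 4199 CPM in IDD+HTF. Other genes went the other way. Apob, the large lipoprotein backbone, stood at 18577 against 2671 CPM in IDD+HID and 13200 against 4358 CPM in IDD+HTF. Trf stood at 16531 against 7866 CPM in IDD+HID and 11279 against 6417 CPM in IDD+HTF. Hspa5, the chaperone of the endoplasmic reticulum, stood at 1777 against 576 CPM in IDD+HID, with a log2 ratio of 1.63 there and 2.45 in IDD+HTF.

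By list, all 56 measured cytosolic ribosomal protein genes were at least 1.5-fold lower in IDD+HID members at 25% or more, as were 14 of 16 in IDD+HTF. All 5 measured heat shock genes and 8 of 9 targets of NRF2, the oxidative stress factor, were lower in IDD+HID. In IDD+HTF 4 of 5 NRF2 targets and 0 of 1 heat shock gene were lower. All 5 unfolded protein response genes in IDD+HID and all 6 in IDD+HTF were higher, against 28% and 60.7% of all measured genes. Secreted plasma protein genes were higher in 26 of 38 cases in IDD+HID, above that background, and in 26 of 39 in IDD+HTF, near it. Acute phase genes were higher in 11 of 12 cases in IDD+HID and in 7 of 13 in IDD+HTF, where the share is again near the background. In IDD, from 11 members, secreted plasma protein genes ran the other way, with 1 of 18 higher and 9 lower, and 0 of 6 acute phase genes were higher and 2 lower. Hamp had log2 ratios of −1.26 in IDD+HID and −0.86 in IDD+HTF. Because IDD+HTF members were mostly at 25% or more, differences between all members of the libraries for these lists move with this split, and its part in them was not tested.

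**Figure D4:**
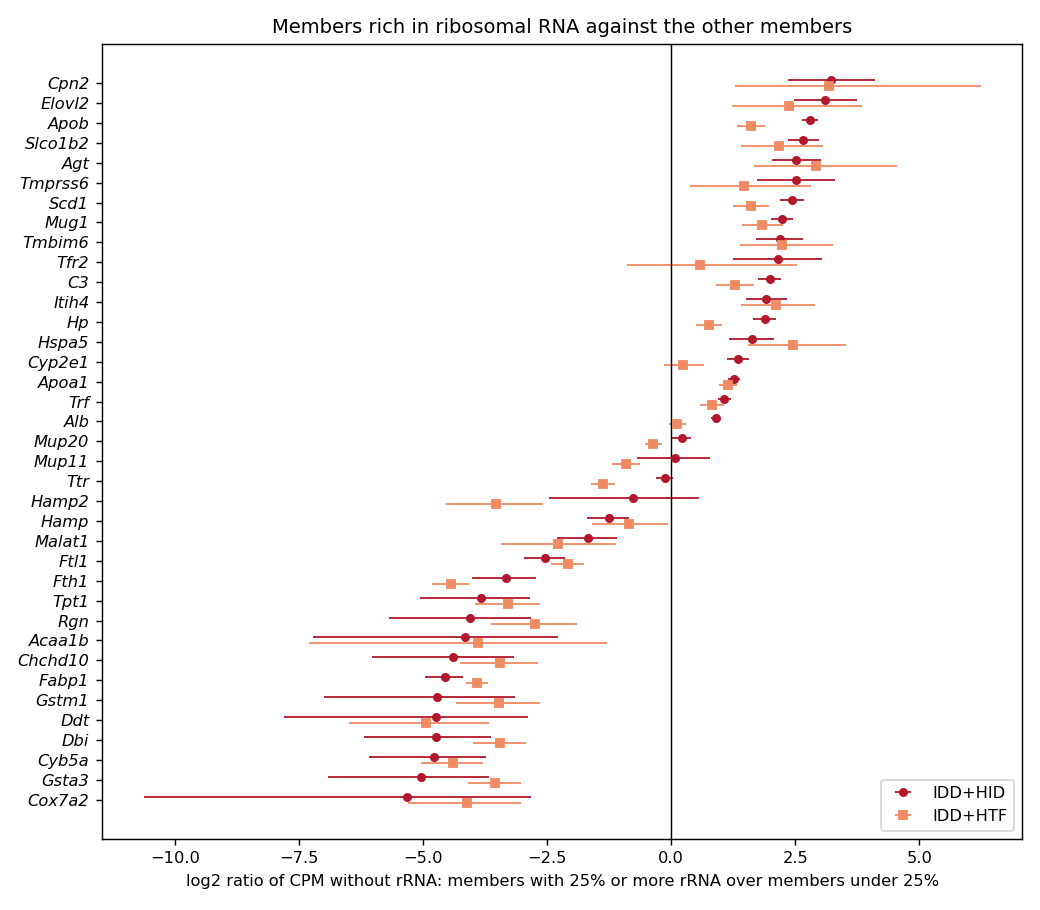
Log2 ratios of CPM without ribosomal RNA in members with at least 25% over members with under 25% ribosomal RNA, in IDD+HID and IDD+HTF, with 95% counting intervals. Fabp1, Fth1 and Cyb5a lie below 0 and Apob, Scd1 and Hspa5 above 0 in both libraries. Fabp1 and Apob are genes of the hepatocyte rule, so their ratios were partly set by selection.

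Against IDD+HTF, IDD+HID members as a whole were higher in fat oxidation, antioxidant and heat shock transcripts. They were lower in sterol and fatty acid synthesis and major urinary protein transcripts, and not all of these directions held within ribosomal RNA classes. Of 1071 genes with at least 50 UMIs in the pair, 61% were at least 1.5-fold higher and 17.8% at least 1.5-fold lower in CPM. The median gene had a log2 ratio of 1.27, so counts relative to it are also given, under which 38.2% were higher and 40.7% lower. Ratios of single genes, here and above, are in CPM and are not relative to the median gene. Within members under 25% ribosomal RNA 37.7% of 679 genes were higher and 14.6% lower, and at 25% or more 23.7% of 389 were higher and 18.5% lower. The median log2 ratios there were 0.35 and 0.11.

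Fat oxidation and fasting genes had the highest median among the lists with at least 5 measured genes. Of 17 measured, 15 were higher and 0 lower in CPM, with a median log2 ratio of 3.04, and 14 were higher and 2 lower relative to the median gene. In members under 25% ribosomal RNA 10 of 12 were higher, with a median of 1.61, and at 25% or more 3 of 4, with a median of 0.94. Acaa1b, a peroxisomal thiolase, had 199 UMIs (715 CPM) in IDD+HID against 7 (22.1 CPM) in IDD+HTF, 32.4-fold (15.4 to 81.6), and 5.22-fold (2.20 to 16.2) under 25%. Cyp4a10 and Cyp4a14, the fatty acid omega-hydroxylases, were seen almost only in IDD+HID among the members. Cyp4a10 had 61 UMIs in IDD+HID, 1 in IDD+HTF and 0 in IDD. Cyp4a14 had 56 UMIs in 29 of 81 members of IDD+HID, and 0 UMIs in 117 members of IDD+HTF and in 11 of IDD, which allows up to 2.56% and 27.3% of cells with a UMI (3 cells of the total), not a limit on cells expressing the gene. At the floor of 3 counts it was at least 21.3-fold higher in IDD+HID than in IDD+HTF. Unlike most of the list, both genes had their highest levels in members with much ribosomal RNA, where Cyp4a14 stood at 594 CPM in IDD+HID and 0 UMIs in IDD+HTF, at least 57.1-fold higher. In periportal hepatocytes 8 of 60 held a Cyp4a14 UMI in IDD+HID, 1 of 286 in IDD+HTF and 0 of 76 in IDD, which allows up to 3.95% of cells with a UMI.

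NRF2 targets, glutathione transferases and heat shock genes were higher in IDD+HID too over all members. Less of this was left under 25% ribosomal RNA, and at 25% or more few genes were measured and no list kept this direction. All 9 measured NRF2 targets were higher in CPM (median log2 ratio 2.30), and 8 of 9 relative to the median gene. Under 25% 8 of 9 were higher with 1 lower (median 1.07), and at 25% or more 0 of 4 were higher (median 0.40). The NRF2 list includes Ftl1, already described with ferritin, so the lists overlap. Prdx1, a peroxide-removing enzyme, stood at 2698 CPM in IDD+HID and 319 CPM in IDD+HTF, against 613 CPM in IDD. Its IDD+HID over IDD+HTF ratio was 8.47-fold (6.87 to 10.5) over all members and 2.37-fold (1.73 to 3.33) under 25%. All 5 measured glutathione transferases were higher in CPM (median 1.98), but under 25% 1 of 5 was higher and 1 lower (median 0.16). At 25% or more 1 of 2 was higher and 1 lower. Gstm1, of this list, stood at 1574 CPM in IDD+HID against 180 CPM in IDD+HTF, 8.75-fold (6.63 to 11.7), against 1.56-fold (1.11 to 2.24) under 25% and a log2 ratio of −0.49 at 25% or more, from 3 and 20 UMIs. All 5 heat shock genes were higher (median 2.81), and 3 of 5 under 25% (median 1.04). At 25% or more 0 of 1 heat shock gene was higher (log2 ratio 0.03). All 61 measured ribosomal protein genes were higher (median 2.44), with 25 of 58 higher and 8 lower under 25% (median 0.42). At 25% or more 0 of 6 were higher and 2 lower (median −0.22). The pericentral P450 and drug metabolism list did not stand out from the 61% of all genes, with 21 of 34 higher and 3 lower (median 1.01), 8 of 20 higher under 25% and 10 of 18 at 25% or more, with medians of 0.48 and 0.94. Relative to the median gene, 8 of these 34 were higher and 14 lower. Cyb5a, of this list, stood at 3852, 429 and 783 CPM in IDD+HID, IDD+HTF and IDD, and its 8.98-fold ratio of IDD+HID over IDD+HTF (7.51 to 10.8) was 1.33-fold (1.09 to 1.64) under 25%.

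The lower lists carried fewer genes. Major urinary protein genes were lower in 4 of 7 cases and higher in 0 in CPM (median −0.64), lower in 6 of 7 under 25%, and lower in 3 of 5 with 1 higher at 25% or more. Sterol and fatty acid synthesis genes were lower in 5 of 6 cases in CPM (median −0.84), in all 6 relative to the median gene, and in 1 of 5 with 2 higher at 25% or more (median 0.29). Thrsp, a lipogenic regulator, had 13 UMIs in IDD+HID and 71 in IDD+HTF, 4.80-fold lower (2.63 to 9.44). Scd1, the stearoyl-CoA desaturase, stood at 2113 CPM in IDD+HID and 4117 CPM in IDD+HTF, against 9531 CPM in IDD. IDD+HID was 1.95-fold lower than IDD+HTF in Scd1 (1.77 to 2.15), 1.73-fold lower under 25% (1.31 to 2.26), and 1.12-fold higher at 25% or more (0.98 to 1.27). Acute phase genes were lower in 5 of 15 cases and higher in 2 (median −0.10), and lower in 14 relative to the median gene. Under 25% 3 of 12 were lower and 0 higher, and at 25% or more 1 of 13 was lower and 2 higher (median 0.19), so the list had no direction that held. Saa1, serum amyloid A, had 15 UMIs in IDD+HID and 87 in IDD+HTF, 5.09-fold lower (2.92 to 9.49). Hp, haptoglobin, stood at 2274 CPM in IDD+HID and 4599 CPM in IDD+HTF, against 2689 CPM in IDD, and was 2.02-fold lower in IDD+HID than in IDD+HTF (1.84 to 2.22) but 1.10-fold lower at 25% or more (0.96 to 1.26). Unfolded protein response genes were lower in 6 of 10 cases and higher in 1 (median −0.66), under 25% 2 of 4 were lower and 2 higher, and at 25% or more 1 of 7 was lower and 0 higher. Among genes named for the whole comparison, those most lower were Alkbh5, Lrp4, Gm28438 and Gm6899. Lrp4 stood at 884 CPM in IDD+HID and 6034 CPM in IDD+HTF, against 1362 CPM in IDD, and it was also higher in members with much ribosomal RNA, at 4092 against 459 CPM without ribosomal RNA in IDD+HID. Those most higher were S100a9, S100a8, Ly6d and Igkc, genes of neutrophils, B cells and other blood cells, of which S100a9, S100a8 and Igkc had 2, 0 and 5 UMIs without the 5 members described above. Malat1, a nuclear RNA, had 483 UMIs in IDD+HID (266 without those 5 members), 29 in IDD+HTF and 0 in IDD.

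**Figure D5:**
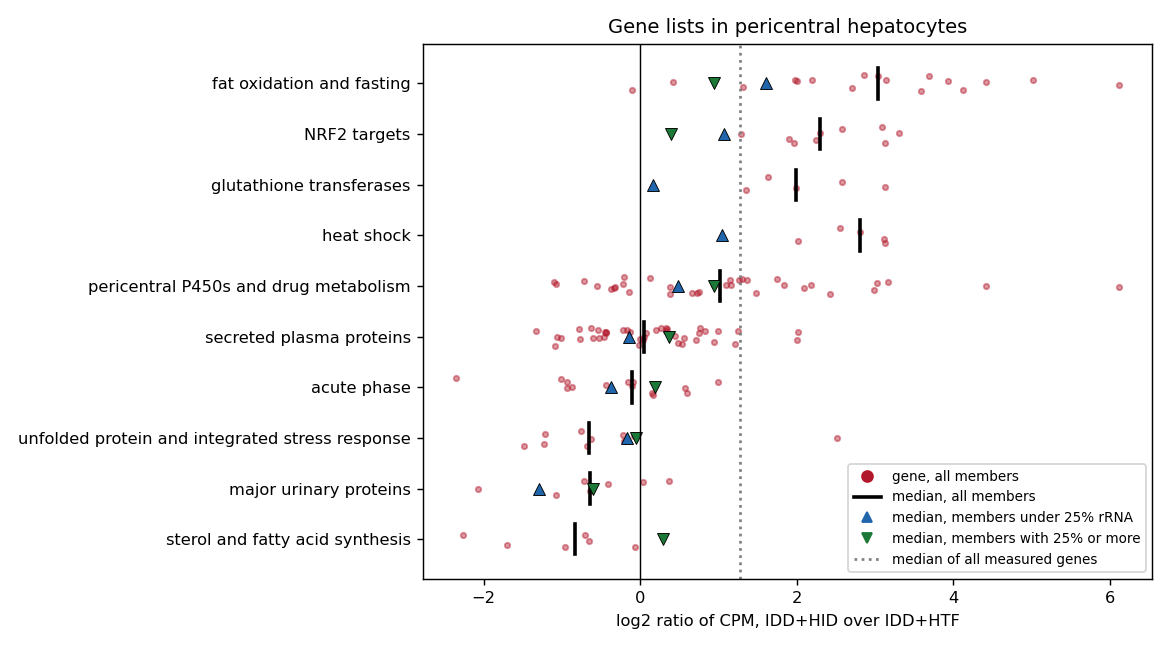
Log2 ratios of IDD+HID over IDD+HTF for the measured genes of each list in pericentral hepatocytes, with 1 dot per gene, a black bar for the median over all members, a blue triangle pointing up for members under 25% ribosomal RNA and a green one pointing down for members at 25% or more. The dotted line is the median of all measured genes at 1.27, and the fat oxidation median of 3.04 lies above it while the major urinary protein median of −0.64 lies below it.

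Against IDD, IDD+HID members were lower in major urinary proteins and lipid synthesis and higher in Hamp, fat oxidation and antioxidant transcripts. Measured genes numbered 739, of which 57.4% were higher by 1.5-fold or more in CPM and 9.61% lower. The median log2 ratio was 0.84, and relative to it 29.4% were higher and 31% lower. Under 25% ribosomal RNA 49.8% of 644 genes were higher and 16% lower, and at 25% or more 47.9% of 117 were higher and 14.5% lower. All 7 measured major urinary protein genes, which encode abundant secreted pheromone carriers, were lower under both scalings, with a median log2 ratio of −2.53 in CPM. Under 25% 6 of 7 were lower and 0 higher, and at 25% or more 4 of 5 were lower and 0 higher. Mup11 stood at 446 CPM in IDD+HID and 1880 CPM in IDD+HTF, against 9531 CPM in IDD, and IDD+HID was 21.4-fold lower than IDD (17.3 to 26.7). Mup20 stood at 5023, 6713 and 17395 CPM. Under 25% ribosomal RNA Mup11 stood at 478, 4958 and 12231 CPM and at 25% or more at 330, 1572 and 6536 CPM, so the order of the libraries was the same in both classes. Mup genes are near-identical copies whose reads the authors' counting may divide, so values for single members of the family are uncertain. Sterol and fatty acid synthesis genes were lower in 3 of 4 cases and higher in 0 (median −1.55), led by Scd1, 4.51-fold lower (3.90 to 5.21). Fat oxidation genes were higher in 12 of 16 cases (median 1.25) and lower in 0, and relative to the median gene 7 were higher and 3 lower. Fabp2, a fatty acid carrier, had 188 UMIs in IDD+HID against 2 in IDD, 9.92-fold (2.71 to 82.5). All 9 NRF2 targets and all 5 heat shock genes were higher in CPM, and 6 and 3 of them relative to the median gene. Under 25% 8 of 12 fat oxidation genes, 8 of 9 NRF2 targets and 3 of 5 heat shock genes were higher, and none of these was lower. At 25% or more no fat oxidation or heat shock gene was measured, and 0 of 1 NRF2 target was higher. None of the 12 measured acute phase genes was past 1.5-fold in CPM over all members, but under 25% 5 of 11 were lower with 0 higher, and at 25% or more 8 of 10 were higher with 0 lower. Akr1c6, a steroid dehydrogenase of the bile acid list, stood at 3291 CPM in IDD+HID against 681 CPM in IDD, 4.83-fold (3.11 to 7.95), but its log2 ratio was −1.12 at 25% or more ribosomal RNA, from 4 UMIs in IDD+HID.

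Against IDD, IDD+HTF members as a whole were lower in major urinary proteins, glutathione transferases and ribosomal proteins. Measured genes numbered 433, of which 30% were higher by 1.5-fold or more in CPM and 29.6% lower. The median log2 ratio was −0.08, and relative to it 30.3% were higher and 27.5% lower. Under 25% ribosomal RNA 33.7% of 104 genes were higher and 31.7% lower, and at 25% or more 34.5% of 345 were higher and 17.4% lower. All 7 major urinary protein genes were lower under both scalings (median −1.89 in CPM), with Mup11 5.07-fold lower (4.38 to 5.85). All 5 measured glutathione transferases were lower in CPM and 4 of them relative to the median gene. Under 25% ribosomal RNA 1 of 2 measured glutathione transferases was higher and 1 lower (median 0.05). At 25% or more 2 of 2 were lower (median −1.37). Of 23 ribosomal protein genes 16 were lower with 0 higher. The ribosomal protein genes turned under 25% ribosomal RNA, where 6 of 8 were higher and 0 lower, while at 25% or more 1 of 5 was higher and 3 lower. Major urinary protein genes were lower in 4 of 5 cases under 25%, with 1 higher, and in 4 of 6 at 25% or more, with 0 higher. Mgst1, a membrane-bound glutathione transferase, stood at 842 CPM in IDD+HTF against 3744 CPM in IDD, 4.45-fold lower (3.53 to 5.57), with log2 ratios of −0.71 under 25% and −1.61 at 25% or more. Ttr, the thyroid hormone and retinol carrier, stood at 2262 CPM in IDD+HTF against 10382 CPM in IDD, 4.59-fold lower (4.00 to 5.26), with log2 ratios of −1.22 under 25% and −0.49 at 25% or more. Rgn stood at 155 CPM in IDD+HTF against 715 CPM in IDD, 4.62-fold lower (2.64 to 7.86), with log2 ratios of −0.29 under 25% and −1.85 at 25% or more. Higher by 1.5-fold were 3 of 6 unfolded protein response genes and 4 of 13 acute phase genes, the second near the 30% of all genes, with 0 and 1 lower, and at 25% or more 2 of 6 and 7 of 13 were higher with none lower. Under 25% 2 of 8 acute phase genes were higher and 3 lower. C3, the central complement component, stood at 2981 CPM in IDD+HTF against 1532 CPM in IDD, 1.95-fold (1.44 to 2.69). Apoa5, a regulator of plasma triglyceride, stood at 1669 CPM in IDD+HTF against 340 CPM in IDD, 4.90-fold (2.64 to 10.3). Ribosomal RNA made up 44.4% of member UMIs in IDD+HTF and 30.0% in IDD, and the part of this gap in these differences was not tested. All 3 comparisons draw on the same 3 libraries, so they are not independent of each other.

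Within pericentral hepatocytes, IDD+HID members with a Glul UMI were compared with those without as a description. Glul, Oat and Cyp1a2 are all genes of the rule. A member without Glul had to pass on the other zone genes, so their levels on each side were partly set by selection. The 15 members with Glul, with a median of 2751 UMIs, had 615 CPM of Oat and 2964 CPM of Rgn, against 169 CPM of Oat and 941 CPM of Rgn in the 66 members without it, with a median of 2228 UMIs. Hamp stood at 2736 CPM with Glul and 2525 CPM without, whereas Cyp1a2 stood at 49.6 CPM with Glul and 287 CPM without. In IDD+HTF, Oat stood at 66.3 CPM in 20 members with Glul and 66.2 CPM in 97 without. In IDD+HID 43 of the 62 Oat UMIs of the members with Glul sat in 1 member, and with that member left out Oat stood at 210 CPM in members with Glul, beside 169 CPM in members without Glul, so most of the Oat difference in IDD+HID rests on that member. In IDD 2 members had a Glul UMI, too few to describe.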

How the data were processed

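Deposited values were raw counts of UMIs per barcode and gene, per the file headers and values, with no normalization and every barcode kept. Libraries were 10x Chromium 3′ v3.1, per the labels, and the submitters' processing notes name GRCm38 and Seurat 4. No label names the aligner or the counter. Symbols came from GENCODE M21. Members, gene lists and thresholds were chosen with earlier results of these data known. UMIs of member cells were summed per library and divided by the library's member total (CPM computed here, with numpy 2.4.6, scipy 1.17.1 and pandas 2.3.3). Ratios carry exact conditional binomial intervals, levels exact Poisson intervals and shares Clopper-Pearson intervals, all for counting error. A gene counted as measured where the pair held 50 UMIs or more, and 1.5-fold was the limit for a count. Named genes were fixed iron and zone genes, those whose interval ended furthest from 1 (8 per direction, or 4 for IDD+HID over IDD+HTF) and up to 3 per list. A few genes the rule named are not reported here. No p-values were made with 1 mouse per group. The step was tested on simulated data. Doublets were called with scanpy 1.11.5, and TMM factors came from edgeR 4.0.16. The files held 0 columns of other samples.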

Additional observations from a re-analysis of the deposited data

Results flagged for a closer look

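Some effects ran in opposite directions in pericentral and periportal hepatocytes, and the differences were not tested. Tfr2 had a log2 ratio of 0.73 in pericentral and −0.76 in periportal hepatocytes for IDD+HID over IDD, from 3 UMIs in IDD pericentral members. Rgn had −2.21 in pericentral and 0.99 in periportal hepatocytes for IDD+HTF over IDD, and Elovl3, a fatty acid elongase, had 0.63 and −0.74 for IDD+HID over IDD+HTF.

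For other genes the direction of the pericentral over periportal log2 ratio differed between libraries, again untested. Hamp2 had −1.31 in IDD+HID and 1.75 in IDD+HTF, where 28 of 44 pericentral UMIs sat in 1 member. Tfr2 had 0.88 in IDD+HID, −0.33 in IDD+HTF and −0.61 in IDD. Agt, angiotensinogen, had 1.13 in IDD+HID, −0.15 in IDD+HTF and −1.71 in IDD.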

How the results depend on the processing

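No paired analysis was possible because each group is 1 mouse and the shared replicate number 1 names it only. The number of genes past 1.5-fold was 495 for IDD+HID over IDD, 258 for IDD+HTF over IDD and 844 for IDD+HID over IDD+HTF. Those counts became 951, 632 and 1845 with at least 20 UMIs, 1562, 1481 and 4938 with at least 1 UMI, and 251, 83 and 492 with a zone rule of at least 10 UMIs and above 6 times. For IDD+HID over IDD the count was 869 at a limit of 50% mitochondrial UMIs and 299 at 10%, and for IDD+HTF over IDD it was 171 at 2-fold. The splits by ribosomal RNA and the values without single members were chosen after seeing the data. Under 25%, counts were 68 for IDD+HTF over IDD and 355 for IDD+HID over IDD+HTF. At 25% or more they were 73 for IDD+HID over IDD and 164 for IDD+HID over IDD+HTF. Members made up 36.9%, 13.7% and 11.4% of hepatocytes in IDD+HID, IDD+HTF and IDD at the 50% mitochondrial limit, 13.5%, 1.37% and 0.429% under the stricter zone rule, and 24.6% and 4.11% under 25% ribosomal RNA in IDD+HID and IDD+HTF. At the 10% mitochondrial limit they made up 9.14% in IDD+HTF and 1.56% in IDD, which left 2 IDD members. Hamp shares without thinning were 80.2% in IDD+HID and 37.6% in IDD+HTF.

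Among ratios past 1.5-fold over all members, the log2 ratios that turned were these, and the cause was not tested. Smaller ratios also changed sign between settings. For IDD+HID over IDD+HTF, Trf ran from −0.83 to 0.78, Tfr2 from −0.85 to 1.47 and Hamp2 from −2.22 to 1.42. Trf ran from −0.70 to 1.09 for IDD+HID over IDD, and Fth1 from −2.31 to 1.91 for IDD+HTF over IDD. At the 10% mitochondrial limit, IDD+HID over IDD had −0.073 for Fth1 and −0.42 for Ftl1. At 25% or more ribosomal RNA it had −0.18 for Ftl1, −0.31 for Cyb5a, −1.12 for Akr1c6 and −0.36 for Prdx1. IDD+HID over IDD+HTF had −0.81 for Fth1 and −0.41 for Alas1 under 25%. At 25% or more it had 0.30 for Tmprss6, −0.39 for Id2, −0.33 for Id3, −0.49 for Gstm1, −0.75 for Taldo1, −1.66 for Akr1c6 and 0.16 for Scd1. Hamp kept its direction in all 17 settings, at 1.88 to 3.65 for IDD+HID over IDD+HTF and 2.28 to 3.75 for IDD+HID over IDD, but ran from −1.10 to 1.67 for IDD+HTF over IDD. These settings include the main one and the removal of called doublets, which took out no member. The stricter zone rule left 1 IDD member and the 10% mitochondrial limit left 2. Mup11 ran from −5.35 to −2.79 for IDD+HID over IDD. With totals scaled by TMM factors, 27 single-gene ratios of IDD+HID over IDD+HTF left their counting interval and 1 stayed inside. For IDD+HID over IDD 10 left and 2 stayed, and for IDD+HTF over IDD 13 stayed. Median-of-ratios size factors gave the same counts. The 11 IDD members with 29377 UMIs limit every comparison with IDD.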
